A study of Mus musculus with 8 samples.

Results

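The genes described are 9 RNA-binding proteins (RBPs) known for work on myelin mRNAs or on splicing in the oligodendrocyte (OL) lineage: *Qk*, *Hnrnpa2b1*, *Hnrnpf*, *Hnrnph1*, *Srsf1*, *Srsf3*, *Syncrip*, *Ptbp1* and *Fmr1*. They were chosen by symbol, for what their proteins are known to do, from the 23427 genes of a table of expression in mouse OL precursor cells (OPCs) during differentiation. All 9 were found, *Qk* under that symbol, and all 9 passed the filter on low values that left 12208 genes for testing. The cells were wild-type (WT) primary OPCs of strain C57BL/6J, sequenced as poly(A)-selected mRNA on 4 days (Day 0, Day 1, Day 2 and Day 3) with 2 replicate libraries on each day. OPCs were immunopanned from cortex at postnatal day 7, pooling 3 pups in a preparation, on a plate coated with an antibody against PDGFRα, and differentiation was started by withdrawing the mitogen PDGF-AA and adding the thyroid hormone T3. Day 0 is the OPC before that change and Days 1 to 3 follow it in culture, where no axons are present to be myelinated. No genotype or treatment other than time in differentiation medium separates the groups, so each comparison asks how the mRNA of a gene differs between days.

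An OL builds its myelin sheath far from its nucleus, and much of the control lies in RNA. The mRNA of myelin basic protein is packed into granules, carried along microtubules into the processes and translated near the membrane, while other pre-mRNAs of the lineage are spliced differently in OPCs and in OLs. QKI, the product of *Qk*, is a STAR-domain protein that binds a short sequence element in myelin and cell cycle mRNAs, acting on their splicing, stability and export, and mice with the quaking mutation fail to form compact myelin. The hnRNP and SR proteins bind pre-mRNAs and set which splice sites are used, often in opposite directions, and several of them also travel with mRNAs to the cytoplasm.

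The element QKI recognises has the core ACUAAY. Its DNA letters, ACTAAC or ACTAAT, were searched on the RNA strand only, in the longest 3′-UTR annotated for *Qk* and for 6 mRNAs known to be bound or carried by these proteins (*Mbp*, *Mobp*, *Mag*, *Cnp*, *Cdkn1b* and *Map1b*). The 3′-UTR of *Qk* itself held 5 matches in 7014 bases, beside a median of 2 in 3′-UTRs of like length, 88.2% of which held at least 1. *Cdkn1b*, which encodes the cell cycle inhibitor p27, held 2 in 3439 bases (66.2% of 3′-UTRs of like length held at least 1), *Mbp* held 2 in 3935 bases (69.7%) and *Mobp* held 1 in 2901 bases (59.6%). The median in 3′-UTRs of like length was 1 for each of these 3 mRNAs. No match was found in the 3′-UTRs of *Mag*, *Cnp* or *Map1b*. Of 3′-UTRs of like length, 15.3%, 25.3% and 71.9% in that order held at least 1. Over all 10959 3′-UTRs examined 35.7% held a match, so a match is common at the longer of these lengths. The matches below show the element in the gene's own mRNA, in a myelin mRNA that rose and in a cell cycle inhibitor that was not called. Each is 26 bases of GENCODE M21 transcript on GRCm38, written 5′ to 3′ along the RNA, with the match in capitals and 10 bases on either side. They are descriptions of sequence, not measured binding sites.
*Qk* first match, chr17:10206540-10206565, minus strand: ataccaacctACTAACtctggactat
*Qk* second match, chr17:10206457-10206482, minus strand: gagttcctggACTAACactgaagaac
*Mobp*, chr9:120176049-120176074, plus strand: gttatctggcACTAACaagaactcaa
*Cdkn1b* first match, chr6:134922868-134922893, plus strand: gttcagaagtACTAATgctcccacag
*Cdkn1b* second match, chr6:134925260-134925285, plus strand: tgaaaattatACTAACttatttatgt

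Values are FPKM, in which the fragments of a gene are divided by its length in kilobases and by the library's mapped total. Levels can thus be set side by side between genes. Between days this holds less well, as summed FPKM was 402460 and 406515 on Day 0 and 366695 and 359540 on Day 3. Changes between days were therefore also fitted with other scalings. Each library held roughly 950000 to 1530000 fragments, estimated from the steps between low values, which is shallow. For the 9 genes that came to between 20.2 fragments per kilobase of transcript in the lowest library of *Fmr1* and 833 in the highest of *Qk*. Fold changes and their standard errors (SE) are on the scale of log2(FPKM + 1), tested with limma across 12208 genes, and a gene was called where the Benjamini-Hochberg adjusted p was under 0.05.

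From Day 0 to Day 3, *Qk* rose and the other 8 genes fell. *Qk* was called higher and all 8 others lower (limma), beside 12% of the genes tested called higher and 26.3% called lower. The median log2 fold change of the 9 genes was -0.98 and that of all genes tested was -0.31. With median ratio scaling, which brought the all-gene median to -0.04, the share of lower calls among all called genes moved from 68.7% to 48.9%, with 17.5% of genes called higher and 16.8% lower. Under that scaling *Qk* was still called higher, 7 of the other 8 were called lower and *Fmr1* was not called.

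**Figure D1:**
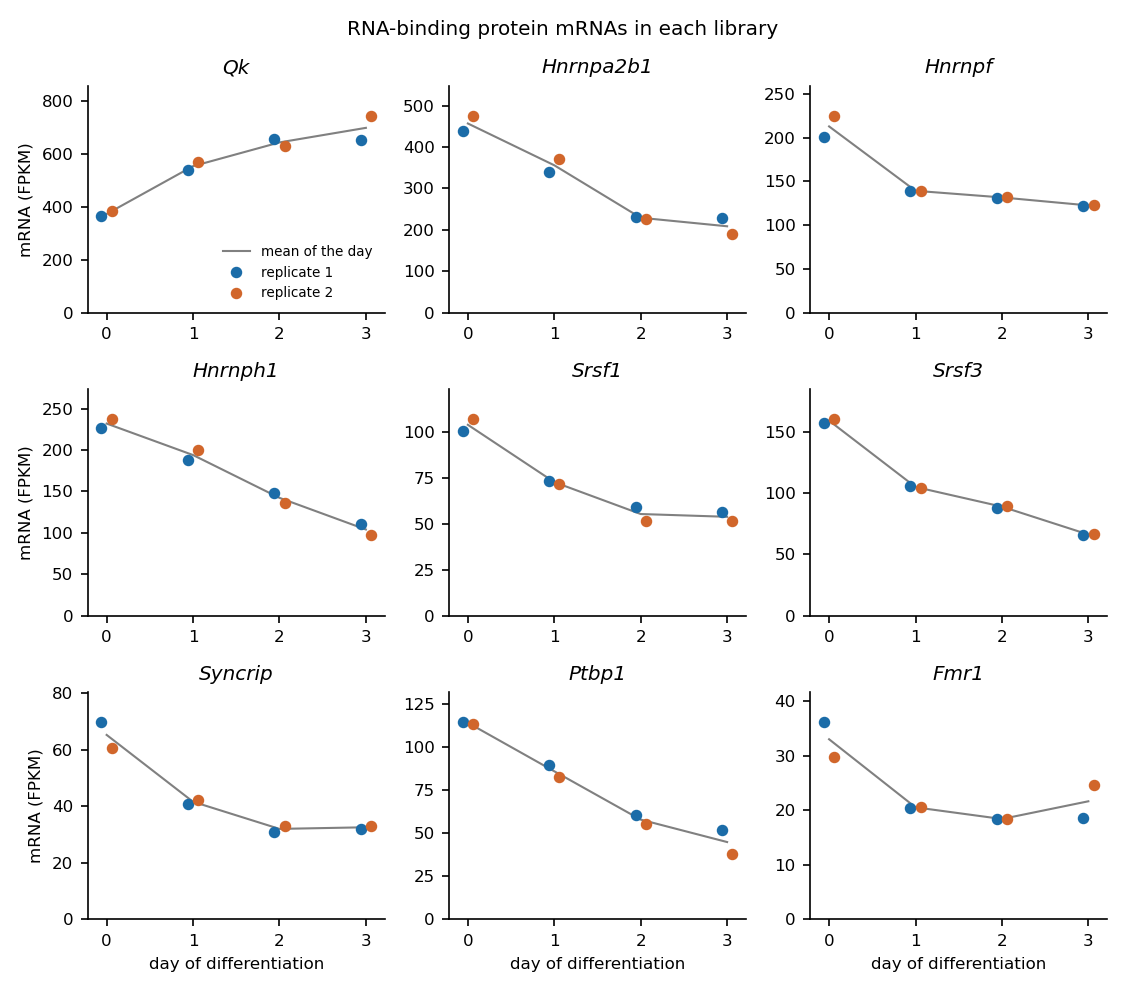
FPKM of each of the 9 genes (y axis, linear, from 0) in every library by day of differentiation (x axis, Day 0 to Day 3). Points are libraries, coloured by replicate number, and the line joins the day means; *Qk* climbs from 363 and 382 to 651 and 744 FPKM, while both Day 3 libraries lie below both Day 0 libraries in every other panel.

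*Qk* is the only gene of the 9 that rose. Its replicates read 363 and 382 FPKM in OPCs (Day 0). They read 538 and 568 FPKM after 1 day in differentiation medium, 654 and 631 on Day 2, and finally 651 and 744. Both libraries of Days 1, 2 and 3 were above both of Day 0, and Days 2 and 3 overlapped. Over the 3 days the log2 fold change came to 0.90 (SE 0.13, limma adjusted p = 0.00123), a ratio of day means of 1.87, with 1.79 within replicate 1 and 1.95 within replicate 2. With median ratio scaling it was 1.22 (limma adjusted p = 5.03e-04). *Qk* was already among the more abundant mRNAs in OPCs, at percentile 98.8 of the genes tested on Day 0, and reached percentile 99.7 on Day 3. It lies on the minus strand of chromosome 17 (chr17:10202601-10319854) with 6 annotated transcripts, 4 of them coding. The nuclear and cytoplasmic QKI proteins come from alternative last exons of this gene, and a value per gene cannot tell those transcripts apart.

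Most of the rise of *Qk* fell in the first day. By Day 1 it had covered 63.2% of its log2 change to Day 3, and by Day 2 87.2%. The 2 Day 1 libraries lay at 58.9% and 67.4%, each set against the means of Days 0 and 3 and not against its own replicate. The step from Day 0 to Day 1 was 0.57 on the log2 scale (SE 0.13, limma adjusted p = 0.0254). The later steps, 0.22 (limma adjusted p = 0.367) and 0.12 (limma adjusted p = 0.754), were not called. The Day 1 call was lost without any of the 4 libraries of Days 0 and 1 in turn, with adjusted p between 0.0527 and 0.173.

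*Hnrnpa2b1* encodes hnRNP A2/B1, which binds a response element in *Mbp* mRNA and takes part in carrying it along the processes. Its libraries read 438 and 476 FPKM at Day 0, 341 and 371 at Day 1, 232 and 227 at Day 2, and 228 and 189 at Day 3. Both Day 0 libraries lay above Day 1 and Day 1 above all later libraries, and Days 2 and 3 overlapped. Its log2 fold change over the 3 days was -1.13 (SE 0.14, limma adjusted p = 5.18e-04), a ratio of 0.457. Only 31.7% of that change lay before Day 1, and 87.5% before Day 2. The step from Day 1 to Day 2 was -0.63 (limma adjusted p = 0.0449), and it lost its call in 12 of 17 alternatives, among them the omission of any library of Days 0, 1 or 2 (adjusted p 0.0883 to 0.247). The gene is on chromosome 6 (chr6:51460932-51469894).

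*Syncrip* encodes hnRNP Q, a component of neuronal and glial mRNA granules that acts on translation. It was at 69.8 and 60.6 FPKM at Day 0, 40.9 and 42.2 at Day 1, 30.8 and 33.0 at Day 2, and 32.0 and 33.0 at Day 3. Day 0 stood above every later library, and Days 2 and 3 overlapped. The log2 fold change to Day 3 was -0.98 (SE 0.14, limma adjusted p = 0.00103), with 64.8% of it reached by Day 1 and 103% by Day 2. In exons, 344 bases of *Syncrip* (chr9:88447009-88482574) overlap Gm20537, a gene of the same strand. Of the 31-base words of *Syncrip*, 9.60% recur in other annotated genes.

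*Fmr1* encodes FMRP, a repressor of translation that binds *Mbp* mRNA among many others and whose loss causes fragile X syndrome in people. It was the lowest of the 9, at 36.2 and 29.9 FPKM at Day 0, 20.4 and 20.6 at Day 1, 18.3 and 18.5 at Day 2, and 18.6 and 24.7 at Day 3. All later libraries lay below both of Day 0, and the second Day 3 library lay above all those of Days 1 and 2. The log2 fold change was -0.60 (SE 0.19, limma adjusted p = 0.0356), the ratio within replicate 1 was 0.513 and that within replicate 2 was 0.827. This call was the least stable of the 9. It was lost with median ratio scaling (-0.29, limma adjusted p = 0.297), without either Day 0 library (0.202 and 0.0650), without Day 3 replicate 1 (0.165) and without either Day 2 library (0.0509 each).

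The hnRNP F and H proteins bind runs of guanines and act on the choice of splice sites near them. *Hnrnpf* was at 200.5 and 225 FPKM on Day 0, 139 in both Day 1 libraries, 132 in both Day 2 libraries, and 122 and 124 on Day 3. No pair of days overlapped. The log2 fold change to Day 3 was -0.79 (SE 0.12, limma adjusted p = 0.00135), and 76.8% of it was reached by Day 1. The step to Day 1 was -0.61 (limma adjusted p = 0.0123). *Hnrnpf* shares more of its sequence with other annotated genes than any other of the 9: 38.5% of its 31-base words recur in 7 other annotated genes, chiefly Gm6430 and Gm7446, and 806 of its exon bases overlap 2 genes of the opposite strand.

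*Hnrnph1* followed a later course. It was at 226 and 238 FPKM at Day 0, 188 and 199.9 at Day 1, 148 and 136 at Day 2, and 111 and 97.1 at Day 3, with no overlap between any days. The log2 fold change was -1.15 (SE 0.13, limma adjusted p = 3.43e-04), of which 22.3% had occurred by Day 1 and 61.0% by Day 2. The steps between neighbouring days were -0.26, -0.44 and -0.45, none called (limma adjusted p = 0.239, 0.0938 and 0.160). Only 1.2% of its 31-base words recur in other genes.

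**Figure D2:**
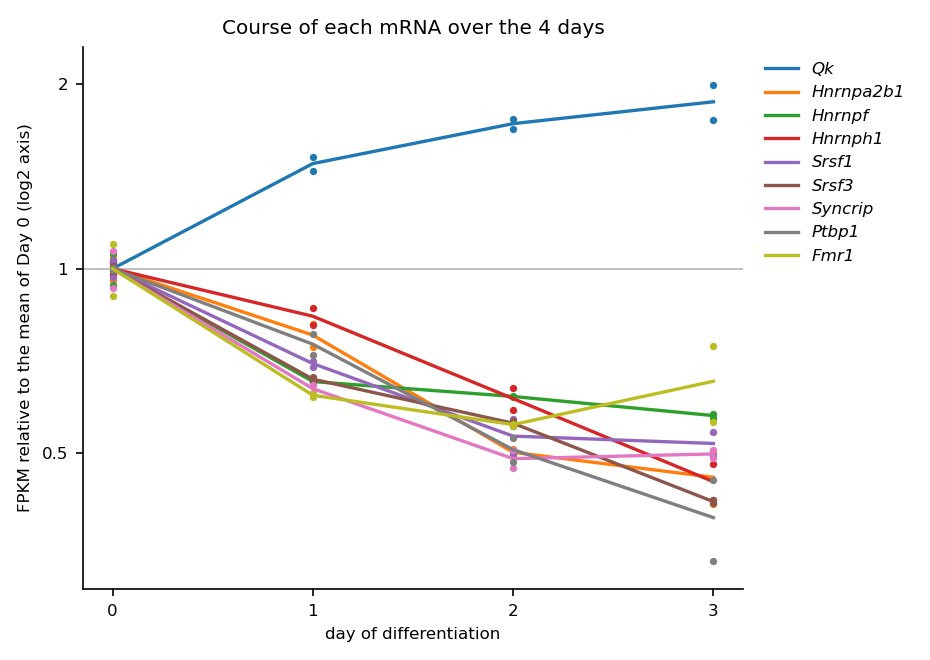
FPKM relative to the mean of Day 0 (y axis, log2 scale) by day of differentiation (x axis) for the 9 genes. Points are libraries and lines join the means of the 2 libraries of a day; *Hnrnpf* and *Syncrip* drop mostly by Day 1, *Hnrnph1* and *Ptbp1* continue downward to Day 3, and *Qk* alone goes up.

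SRSF1 and SRSF3 are SR proteins, which bind exonic enhancers, recruit the spliceosome and escort mRNA out of the nucleus. *Srsf1* was at 100.4 and 107 FPKM at Day 0, 73.4 and 71.7 at Day 1, 58.9 and 51.6 at Day 2, and 56.2 and 51.3 at Day 3. Day 0 was above Day 1 and Day 1 above all later libraries, and Days 2 and 3 overlapped. Its log2 fold change to Day 3 was -0.94 (SE 0.13, limma adjusted p = 0.00100). *Srsf3* was at 157 and 160 FPKM at Day 0, 106 and 104 at Day 1, 88.1 and 89.7 at Day 2, and 65.8 and 66.7 at Day 3. Its days did not overlap and its replicates lay close together, and the log2 fold change was -1.25 (SE 0.11, limma adjusted p = 1.51e-04), with ratios of 0.418 and 0.415 within the replicates. By Day 2, *Srsf1* had completed 96.0% of its change and *Srsf3* 66.4%. No 31-base word of *Srsf1* recurs in the transcripts of other annotated genes, whereas 13.8% of those of *Srsf3* do, most often in Gm12355. In exons, 98 bases of *Srsf1* overlap the opposite-strand gene Gm11508.

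*Ptbp1* encodes the polypyrimidine tract binding protein, which represses exons used in neural cells. It was at 115 and 114 FPKM at Day 0, 89.5 and 82.6 at Day 1, 60.5 and 55.3 at Day 2, and 51.6 and 38.0 at Day 3, each day below the last with no overlap. Its log2 fold change of -1.35 (SE 0.16, limma adjusted p = 4.97e-04) gave a ratio of day means of 0.392, with 0.450 within replicate 1 and 0.334 within replicate 2. By Day 1, 30.2% of the change had occurred and by Day 2 72.1%. *Ptbp1* (chr10:79854427-79864771) shares 983 exon bases with 3 genes of the opposite strand and 11.5% of its 31-base words with other genes, chiefly Gm4900. The libraries were made with a stranded kit, and whether the counting used strand is not given in the sources used here.

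Between neighbouring days, calls thinned out. From Day 0 to Day 1, 1 of the 9 genes was called higher and 4 lower (*Hnrnpf*, *Srsf1*, *Srsf3* and *Syncrip*), beside 5.04% of all genes higher and 7.56% lower (limma). The 4 that were lower all lost their call without either Day 0 library or without Day 1 replicate 2. From Day 1 to Day 2, none was called higher and *Hnrnpa2b1* alone lower, beside 2.16% and 1.73% of all genes; at an unadjusted p under 0.05 the counts were 0 higher and 5 lower. From Day 2 to Day 3, none of the 9 was called in limma with or without the replicate number as a block, 3 were lower at an unadjusted p under 0.05 (*Hnrnph1*, *Srsf3* and *Ptbp1*), and 0.246% of all genes were called higher and 0.0491% lower.

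A slope of log2(FPKM + 1) on day, tested by an exact two-sided permutation of the libraries with adjustment over all genes, passed for 8 of the 9 genes. *Qk* rose by 0.29 per day (exact permutation adjusted p = 0.0188) and 7 genes fell, beside 6.93% of all genes rising and 15.9% falling. The steepest were *Ptbp1* at -0.46, *Srsf3* at -0.40 and *Hnrnpa2b1* at -0.40 per day, followed by *Hnrnph1* at -0.39, *Syncrip* at -0.33, *Srsf1* at -0.32 and *Hnrnpf* at -0.24. The slope of *Fmr1*, -0.19 per day, did not pass (exact permutation adjusted p = 0.162). With the libraries permuted within replicate number, *Syncrip* lost its call (exact permutation adjusted p = 0.0557). *Syncrip* (0.0581) and *Hnrnpf* (-0.13 per day, 0.152) also lost theirs with median ratio scaling.

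**Figure D3:**
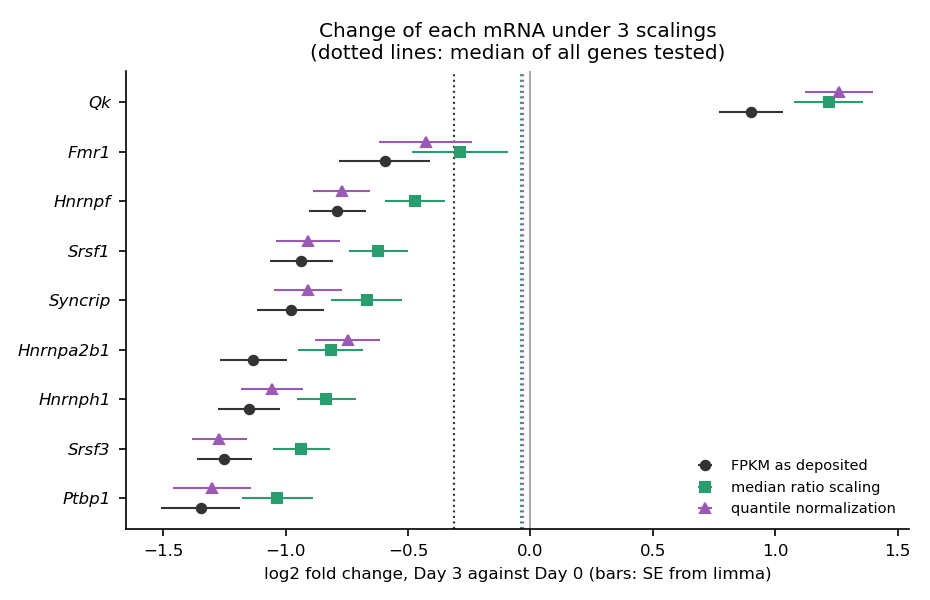
Log2 fold change of Day 3 against Day 0 (x axis) for each of the 9 genes (y axis) with FPKM as deposited, median ratio scaling and quantile normalization. Points are limma estimates, bars their SE and dotted lines the median of all genes tested; with FPKM as deposited *Qk* stands at 0.90 and the other 8 between -1.35 and -0.60, and under both other scalings each estimate keeps its sign.

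Because the genes were measured in the same libraries, differences between pairs of them do not depend on a single scaling factor per library, apart from the pseudocount. Quantile normalization, which is not a single factor, moved the 4 slopes below to between 0.098 and 0.87 per day and changed no call. The log2 level of *Qk* minus that of *Ptbp1* was 1.66 and 1.74 at Day 0, 2.58 and 2.77 at Day 1, 3.41 and 3.49 at Day 2, and 3.63 and 4.25 at Day 3, with no overlap between days. It grew by 0.75 per day (exact permutation p = 7.94e-04, the smallest that the arrangements of 8 libraries give; adjusted over 4 pairs 0.00159). *Qk* minus *Hnrnpa2b1* began at -0.27 and -0.32 at Day 0 and ended at 1.51 and 1.97 at Day 3, passing through 0.66 and 0.61 at Day 1 and 1.49 and 1.47 at Day 2. The more abundant mRNA of the pair was thus *Hnrnpa2b1* in OPCs and *Qk* in every library from Day 1 on, and the slope was 0.69 per day (exact permutation adjusted p = 0.00159). In the slope test above *Qk* rose and both *Ptbp1* and *Hnrnpa2b1* fell, so these pairs were already known to differ. Their p-values add no separate support.

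The other 2 pairs join proteins of like function. *Hnrnpf* minus *Hnrnph1* was -0.17 and -0.08 at Day 0, -0.43 and -0.52 at Day 1, -0.17 and -0.05 at Day 2, and 0.13 and 0.34 at Day 3. It dipped on Day 1 and was above 0 only on Day 3, and its slope of 0.14 per day did not pass (exact permutation adjusted p = 0.138). *Srsf1* minus *Srsf3* ran from -0.64 and -0.58 on Day 0 to -0.22 and -0.37 on Day 3, a slope of 0.08 per day that did not pass either (exact permutation adjusted p = 0.155).

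**Figure D4:**
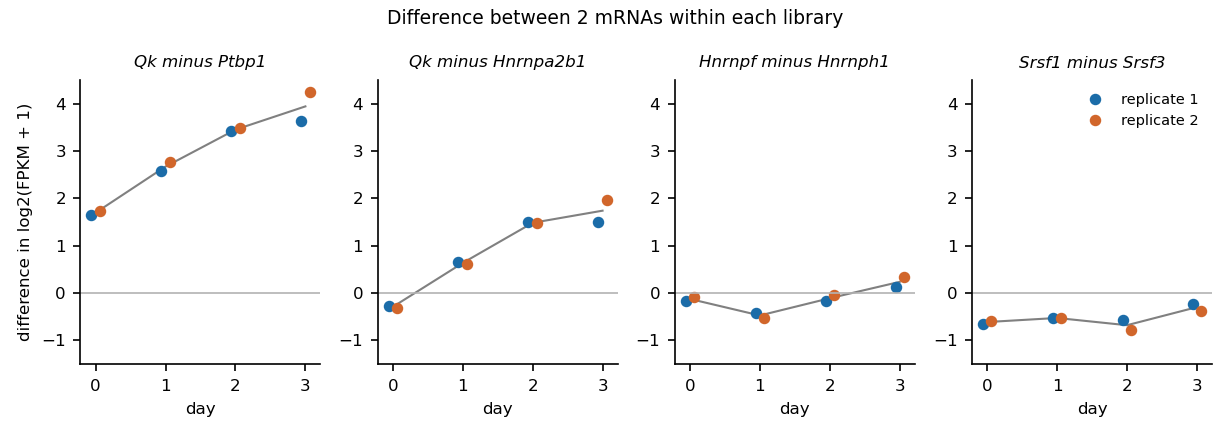
Difference in log2(FPKM + 1) between 2 genes of the same library (y axis, log2 units) by day (x axis) for 4 pairs. Points are libraries and lines join day means; *Qk* minus *Hnrnpa2b1* crosses 0 between Day 0 and Day 1, and the pairs of *Hnrnpf* with *Hnrnph1* and of *Srsf1* with *Srsf3* stay between -0.78 and 0.34.

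In order of level, Day 0 read *Hnrnpa2b1*, *Qk*, *Hnrnph1*, *Hnrnpf*, *Srsf3*, *Ptbp1*, *Srsf1*, *Syncrip* and *Fmr1*, with no overlap between neighbours in this order. On Days 1 and 2 *Qk* stood first. On Day 3 *Hnrnpf* was above *Hnrnph1* and *Srsf1* above *Ptbp1*, and the libraries of *Ptbp1* and *Srsf1* overlapped on Days 2 and 3. The falling genes remained well expressed on Day 3, from percentile 71.9 of the genes tested for *Fmr1* to 98.1 for *Hnrnpa2b1*. Across the 8 libraries, Pearson's r of *Qk* with the other 8 genes ran from -0.97 to -0.80 and that among the other 8 from 0.53 to 0.98, a description in which all points share library and day. The genes whose log2 levels lay closest to that of *Qk* over the 8 libraries were *Pde4dip* (r = 0.991; 27.8, 49.1, 61.1 and 70.5 FPKM on Days 0 to 3), *Arhgef10* (0.989), *Hsd17b7* (0.987), *Spns2* (0.987) and *Neo1* (0.984).

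The families to which these genes belong were read with the same fit. Of 20 other hnRNP genes, 17 were called lower, 0 higher and 3 not (*Hnrnph2*, *Pcbp1* and *Raly*) from Day 0 to Day 3 (limma; 12% higher and 26.3% lower over all genes), with all 20 estimates below 0 and a median log2 fold change of -1.01 beside -0.31 over all genes tested. The largest falls were those of *Hnrnpa0*, an hnRNP of the A/B group, from 112 to 38.5 FPKM (-1.53, adjusted p = 2.33e-04), and *Hnrnpdl*, a relative of the AU-rich element binding hnRNP D, at -1.45 (adjusted p = 4.50e-04). With median ratio scaling 16 of the 20 were lower and 0 higher, beside 16.8% and 17.5% of all genes. *Hnrnph2*, the close paralog of *Hnrnph1*, went from 70.6 to 60.2 FPKM (-0.23, adjusted p = 0.219).

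Of 10 other SR and SR-like genes, limma called 7 lower, 0 higher and 3 not (*Srsf5*, *Srsf11* and *Tra2a*). The shares of all genes were 26.3% lower and 12% higher. All 10 estimates were below 0, with a median of -0.81 beside -0.31 over all genes tested. *Srsf2*, a regulator of exon inclusion, fell from 189 to 82.3 FPKM (-1.19, adjusted p = 6.02e-04) and *Srsf7*, which also acts in mRNA export, from 61.0 to 26.7 FPKM (-1.17, adjusted p = 0.00121). With median ratio scaling the counts were 6 lower and 0 higher, beside 16.8% and 17.5% of all genes. From Day 0 to Day 1, 8 of these 20 hnRNP genes and 1 of these 10 SR genes were called lower (limma), beside 7.56% of all genes. The SR count was near that share. With median ratio scaling the Day 1 counts were 6 hnRNP and 0 SR genes lower, beside 772 of all 12208 genes.

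Other regulators of splicing, only some of them with tissue-restricted patterns, moved both ways. Of 23 listed, 19 passed the filter, and 2 were called higher, 11 lower and 6 not (limma), with a median of -0.94, beside 12% and 26.3% of all genes called higher and lower. With median ratio scaling 3 were called higher, 9 lower and 7 not, with a median of -0.64, beside 17.5% and 16.8% of all genes. *Nova1*, known as a neuronal splicing factor, fell from 33.6 to 4.92 FPKM (-2.58, adjusted p = 3.97e-04) and *Celf2*, a regulator of splicing and mRNA stability, from 23.2 to 3.68 FPKM (-2.38, adjusted p = 7.35e-04). The 2 called higher without rescaling were *Elavl3*, a binder of AU-rich elements known from neurons, from 20.8 to 189 FPKM (3.13, adjusted p = 8.42e-05), and *Mbnl2*, a muscleblind protein, from 20.3 to 78.8 FPKM (1.88, adjusted p = 2.82e-04). *Ptbp2*, the paralog that takes over from *Ptbp1* in developing neurons, fell from 41.1 and 55.0 FPKM at Day 0 to 20.98 and 21.1 at Day 3 (-1.14, adjusted p = 0.00714), and *Ptbp3* was at 13.0, 14.2, 23.7 and 19.3 FPKM on Days 0 to 3 (0.52, adjusted p = 0.0795) and was the third call under median ratio scaling.

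Genes of mRNA transport and translation were also divided. Of 20 listed, 19 passed the filter and 1 was called higher, 9 lower and 9 not (limma), beside 12% and 26.3% of all genes called higher and lower. With median ratio scaling the counts were 2, 5 and 12, near the shares of all genes (17.5% higher and 16.8% lower). *Kif1b*, a kinesin known to carry *Mbp* mRNA, rose from 67.5 to 162 FPKM (1.24, adjusted p = 4.72e-04). *Ybx1*, a Y-box protein that packages mRNA, fell from 488 to 182 FPKM (-1.42, adjusted p = 1.88e-04), and *Ckap5*, the microtubule protein of RNA granules, from 79.8 to 32.0 FPKM (-1.30, adjusted p = 4.96e-04). The paralogs of *Fmr1* were not called, *Fxr1* at 69.0 and 73.2 FPKM (0.08, adjusted p = 0.668) and *Fxr2* at 28.8 and 34.2 FPKM (0.24, adjusted p = 0.278) on Days 0 and 3.

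**Figure D5:**
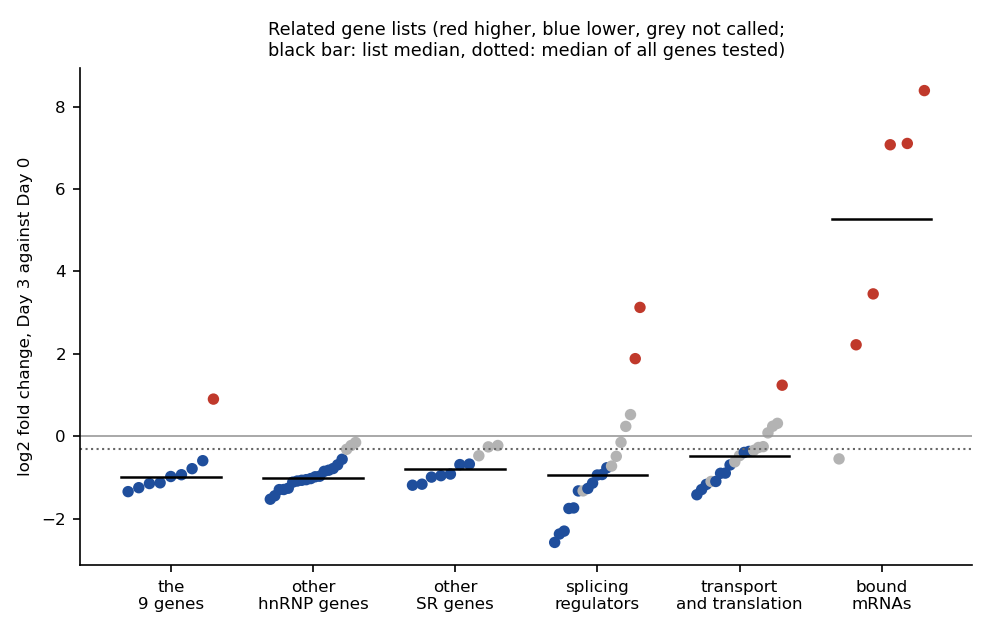
Log2 fold change of Day 3 against Day 0 (y axis) for the genes tested in the set of 9 and in 5 related groups (x axis). Each point is a gene, red where limma called it higher, blue lower and grey neither, black bars are group medians and the dotted line is the median of all genes; all 20 other hnRNP genes and 10 other SR genes lie below 0 (18 and 8 of them with median ratio scaling), and 5 of the 6 bound mRNAs lie above it.

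Most of the listed mRNAs that these proteins are known to bind rose from Day 0 to Day 3, as *Qk* did and unlike the other 8 genes. Of 6, 5 were called higher, 0 lower and 1 not (limma), beside 12% of all genes called higher and 26.3% lower. With median ratio scaling these counts were the same, beside 17.5% and 16.8% of all genes. Without rescaling, the log2 fold changes of the 5 were 8.39 for *Mobp*, 7.11 for *Mbp*, 7.08 for *Mag*, 3.45 for *Map1b* and 2.22 for *Cnp*. Of the 5, all but *Map1b* are myelin genes also used as markers of the OL. Whether these proteins acted on the listed mRNAs was not tested. *Map1b*, which encodes a microtubule protein and whose translation FMRP represses, was at 13.0, 140, 250 and 151 FPKM on Days 0 to 3. *Cdkn1b* was at 47.0, 43.6, 21.8 and 31.9 FPKM (-0.55, limma adjusted p = 0.0600, unadjusted 0.0243).

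Markers of cell state moved over the same days. The summed FPKM of 3 OPC markers (*Pdgfra*, *Cspg4* and *Ptprz1*) went from 756 to 769 in the Day 0 libraries to 45.9 to 75.8 on Day 3, that of 5 OL markers (*Mbp*, *Mag*, *Mog*, *Mobp* and *Cnp*) from 508 to 549 up to 12374 to 17214, and that of 6 cell cycle genes from 754 to 998 down to 15.4 to 21.3. Their part in the change of the 9 genes was not tested. The summed FPKM of 7 astrocyte markers was 120, 167, 131 and 148 on Days 0 to 3 in replicate 1, and 354, 522, 641 and 952 in replicate 2. None of the 7 was called from Day 0 to Day 3 (limma; 0 at an unadjusted p under 0.05), whereas with the replicate number as a block *Gfap* (1.76, limma adjusted p = 1.26e-04) and *Aqp4* (1.62, limma adjusted p = 7.35e-04) were called higher. *Gfap*, the astrocyte filament protein, went from 14.7 to 45.5 FPKM in replicate 1 and from 154 to 603 in replicate 2. The part of astrocyte RNA in the values of the 9 genes was not tested. Of 5 neuron markers, *Tubb3* went from 60.2 and 20.8 FPKM to 231 and 113, whereas *Rbfox3* and *Stmn2* were at or below 0.862 FPKM throughout. *Snap25* was at 2.15 and 8.46 FPKM on Day 0 and at 0 and 1.48 on Day 3, and *Syt1* at 2.05 and 1.72 and then 0.969 and 1.10. The 5 microglia markers were at 0 in all but 1 library, and sums of 5 endothelial and mural markers did not exceed 0.767. In cultures measured in bulk, fewer cells of a type and less mRNA in each cell cannot be told apart.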

How the data were processed

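RNA was taken from primary OPC cultures on Day 0 to Day 3, and stranded mRNA libraries were sequenced as paired ends on a MiSeq. The authors ran OmicSoft ArrayStudio, with mm10 named in the submitters' processing notes, and deposited a single table of FPKM per gene and library. The aligner, gene model, multi-mapping rule and use of strand are not given in the sources used here. Symbols were taken as listed, and 4 listed under older symbols (*Hnrnpdl*, *Hnrnpll*, *Ptbp3* and *Map1b*) were matched through RefSeq synonyms. FPKM are not counts, so DESeq2, named in the methods, was not used. A gene was kept where 2 or more libraries reached an FPKM of 1, and log2(FPKM + 1) was fitted with limma 3.58.1 in R 4.3.3 (day as a factor, trended eBayes) on all 8 libraries, with Benjamini-Hochberg adjustment over 12208 genes. The steps were tested on simulated data. Slopes were tested over every arrangement of the libraries.

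The 9 genes, the related lists and the tests were chosen with earlier results of these data known. Of the listed myelin genes, 1 is not reported here and was left out of the lists and sums. Named genes were the 9, all bound mRNAs and the 5 genes most correlated with *Qk*. From each related list came the 2 called genes with the largest rise and the 2 with the largest fall. The paralogs *Ptbp2*, *Ptbp3*, *Fxr1*, *Fxr2* and *Hnrnph2* were added whatever their values. Other paralogs of the 9 were not added on that ground. Alternatives were another pseudocount (0.1), other filters, 2 other scalings (same sum and median ratio), quantile normalization, a block for replicate number, fits restricted to the compared days, untrended eBayes and omission of each library in turn. Replicates are described as independent, and p-values measure the spread between these libraries. The labels number the libraries 1 and 2 on each day; replicate differences correlated between all 6 pairs of days (r from 0.16 to 0.29). Depth was estimated from the steps between low values, where 56.1% to 65.6% of 303 to 373 values per library lay within 0.05 of a whole fragment. Coordinates and sequences are from GENCODE M21 (GRCm38).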

Additional observations from a re-analysis of the deposited data

How the results depend on the processing

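Over 747 fold changes and slopes of the 9 genes under alternatives, 679 kept their direction and side of the threshold, 58 lost and 5 gained a call and 5 changed sign. For Day 3 against Day 0, 143 of 153 held, and the 10 that did not were all of *Fmr1*. Without 1 library, 7 to 8 of the 9 were called lower. The Day 1 to Day 2 count of 1 gene lower became 0 with a pseudocount of 0.1, no filter, the same sum, median ratio scaling, only the days compared or eBayes without a trend, and was 0 to 2 without 1 library. The Day 0 to Day 1 count of 1 higher became 0 with only the days compared or without a trend (0 to 1 without 1 library), and that of 4 lower became 0 without a trend (0 to 5 without 1 library). Sign changes, none called, were *Hnrnpf* at 0.12 and *Fmr1* at 0.038 for Day 2 against Day 1 with median ratio scaling, and for Day 3 against Day 2 *Srsf1* at 0.055 without Day 2 replicate 1 and 0.027 without Day 3 replicate 2 (range -0.13 to 0.055 without 1 library) and *Syncrip* at -0.023 without Day 2 replicate 1 (range -0.023 to 0.074). The slope of *Srsf1* minus *Srsf3* was 0.036 to 0.096 per day without 1 library and passed without Day 2 replicate 2 (exact permutation adjusted p = 0.0148). The causes were not tested. With the replicate block, paired by replicate number, the slope of *Syncrip* lost its call (adjusted p = 0.0557) and no other call of the 9 genes changed. The shallow depth (950000 to 1530000 fragments) and 2 replicates a day limit what the steps between neighbouring days can show.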
